A study of Danio rerio with 6 samples.

Results

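Many zebrafish genes still carry the name of the sequenced clone or cDNA on which they were found. Of the 31701 genes with values in all samples, 9152 had such a name. From these, 164 were singled out here because they were abundant in hair cells and far less abundant in the surrounding cells. They were selected on the values of these same samples: a symbol that starts with si:, zgc:, im: or wu:, with CABZ, or with CU, BX or CR and a digit, a mean of at least 10 RPKM in hair cells (read counts scaled to the length of a transcript and to all mapped reads), and a hair cell mean at least 20 times the nsSC mean plus 0.1 RPKM. The gene si:ch211-243g18.2 was left out by that rule. Whatever their name, 2.50% of all genes met both limits, and apart from the gene left out the other 628 had names outside this pattern. The difference between the cell types was used to choose the 164 members, so it is given as a description, without a test.

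The samples came from the utricle, saccule and lagena, the sensory organs of the inner ear, of adult female Tg(pou4f3:GAP-GFP)s273t zebrafish aged 11 to 13 months. In this line the promoter of pou4f3, a transcription factor of hair cells, drives a membrane-bound GFP. Each of 3 hair cell samples held 1000 cells that showed both GFP and a stereocilia bundle and were picked singly with a suction pipette, and each of 3 non-sensory surrounding cell (nsSC) samples held 1000 cells that showed neither. Cells of the 3 organs were pooled, about 4 fish supplied each hair cell sample and 15 fish supplied all 6 samples. The study describes collecting both hair cells and nsSCs from each fish. The nsSCs share the transgene and were a mixture of cell types defined only by what they lacked. With pooled cells, fewer cells that express a gene and less RNA per cell cannot be told apart.

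Hair cells are the mechanosensory receptors of hearing and balance. Sound or head movement deflects their hair bundle, rows of actin-filled stereocilia that in fish stand beside a kinocilium, a true microtubule-based cilium, and the voltage change that follows releases transmitter at ribbon synapses. Genes needed for the bundle, the kinocilium, the basolateral channels and the synapse are therefore those known to mark the cell. The prefix of a clone name says nothing of function: si: stands for genes annotated on clones sequenced at the Sanger Institute, zgc: for cDNAs of the Zebrafish Gene Collection, and the remaining prefixes for accessions of sequenced clones or contigs. Among the members, 95 had the prefix si:, 21 zgc:, 16 BX, 12 CABZ, 12 CR and 8 CU.

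Being clone-named did not mean that no name existed. Through the first column of the deposited table, a list of names by Ensembl identifier, or RefSeq, 66 of the 164 members had a gene name as well, and another 12 had only the name of an open reading frame in a mammal, such as C16H1orf232. The remaining 86 had neither kind of name in any of these sources, and some were missing from 1 or more of them. These 86 had a median hair cell mean of 52.6 RPKM, against 27.4 RPKM for the 66 with a gene name and 30.6 RPKM for the 12 open reading frames. The abundant end of the set was thus not the better annotated end. RefSeq matched 105 members, of which 101 were protein-coding and 4 were long non-coding RNAs.

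The levels of cell type markers bear on what restriction to the hair cell samples means. The markers were listed with earlier results of these data known, so their calls are a description. All 20 entries for hair cell markers were higher in hair cells by the test across all genes described below. Their summed level was 42303 to 43048 RPKM in hair cells and 271 to 288 RPKM in nsSCs. Most of the hair cell sum came from s100s, s100t and cabp2b, which the study itself lists as enriched in hair cells. Glial, leukocyte, red blood cell and connective tissue markers were mostly higher in nsSCs: 8 of 9 glial entries, 8 of 10 leukocyte entries (2 not tested), 7 of 7 red blood cell entries and 11 of 11 entries for connective tissue and vessels were called there. The summed levels in hair cells and nsSCs were 341 to 355 and 6468 to 6624 RPKM for glia, 9.60 to 11.4 and 495 to 540 RPKM for leukocytes, 940 to 1015 and 20435 to 24229 RPKM for red blood cells, and 18.7 to 20.5 and 795 to 837 RPKM for connective tissue. Neuronal markers were low in both, with sums of 91.9 to 95.2 RPKM in hair cells and 44.0 to 52.3 RPKM in nsSCs, and of 13 entries hair cells had 2 calls and nsSCs 6. The 2 were isl1 (58.7 against 0.20 RPKM) and snap25b (13.1 against 2.80 RPKM). Most of the hair cell sum came from isl1 alone, so the sums do not show that neuronal markers as a set were higher there.

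Markers of supporting and epithelial cells were divided between the cell types. Of 15 supporting and epithelial entries (sums of 1240 to 1272 RPKM in hair cells and 3129 to 3402 RPKM in nsSCs), 6 were called higher in nsSCs and 7 higher in hair cells. All but krt5 of the keratins and epithelial junction genes were called higher in nsSCs. The genes krt5 (642 RPKM in hair cells against 771 RPKM in nsSCs) and fabp7a (93.9 against 88.0 RPKM) were called in neither direction. The 7 included sox2, a transcription factor of supporting cells and progenitors, at 31.0 RPKM in hair cells against 1.04 RPKM in nsSCs, and cx30.3, a connexin, at 102 against 2.25 RPKM. The otolith matrix gene stm had 155 and 12.3 RPKM, tecta of the overlying matrix 12.5 and 0.70 RPKM, and her4.1, a Notch target, 95.6 and 4.65 RPKM. The hair cell markers and 7 of the 15 supporting and epithelial entries were thus higher in the hair cell samples. The part of supporting cells in the members' values was not tested.

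The 164 members spanned a wide range of abundance. Their hair cell means ran from 10.2 to 3042 RPKM, with a median of 32.4 RPKM and quartiles of 18.2 and 115 RPKM, while the median of their nsSC means was 0.28 RPKM. Of all genes ranked by hair cell mean, 6 members stood among the first 100 and 44 among the first 1000. The members made up 3.30%, 3.31% and 3.33% of the summed RPKM of the 3 hair cell samples and 0.0217%, 0.0207% and 0.0207% of that of the nsSC samples. Their most abundant 5 genes held 37.2% of the members' hair cell sum. The plot of all genes shows the members as the upper left part of a continuous cloud rather than as a group set apart from it.

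**Figure D1:**
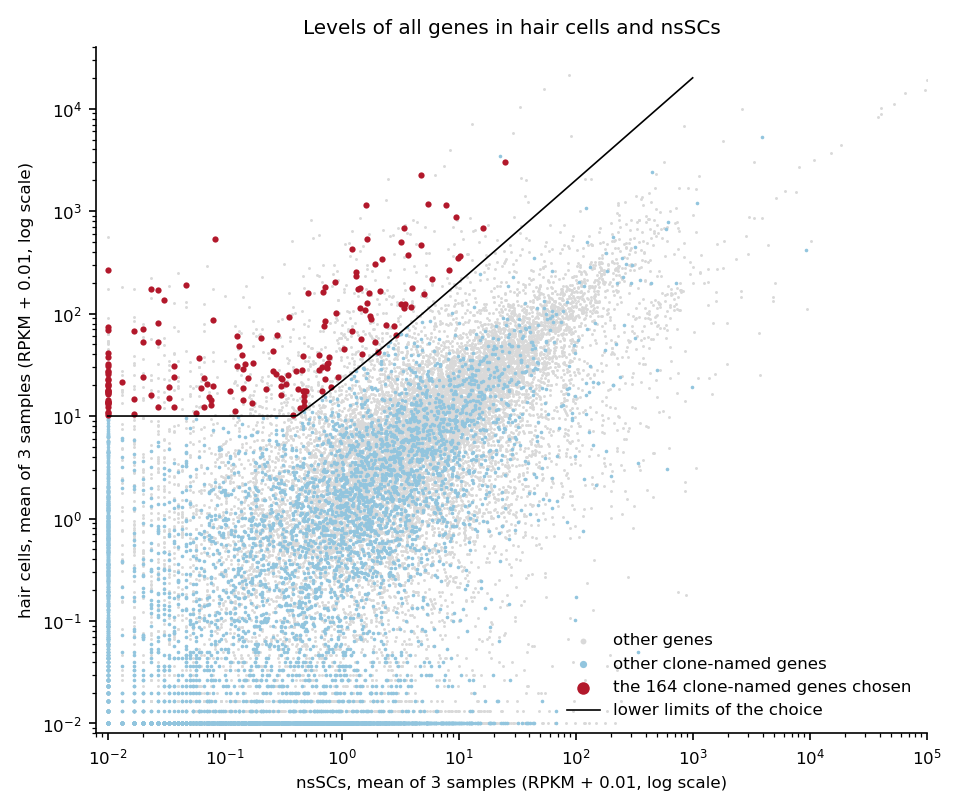
Mean level of each gene in nsSCs (x axis) and in hair cells (y axis), in RPKM plus 0.01 on log scales, each the mean of 3 samples; the 164 members are red, other clone-named genes blue, all other genes grey, and the line marks the limits of 10 RPKM and of 20 times the nsSC mean plus 0.1 RPKM. The members lie above the line with nsSC means from 0 (left edge) to 24.98 RPKM, and genes with other names lie among them.

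At the limits the values ran on without a gap. The 3 members nearest to the abundance limit were zgc:153395 with a hair cell mean of 10.2 RPKM, BX927260.1 with 10.2 RPKM and CABZ01102047.1 with 10.4 RPKM, while the clone-named ANKFN1 entry with 9.78 RPKM, si:ch211-93g23.2 with 9.76 RPKM and si:ch73-81k8.2 with 9.64 RPKM fell just outside. On the ratio to the nsSC mean plus 0.1, BX936433.1 (42.4 against 2.02 RPKM) was at the limit itself, CR847953.1 at 20.2 and zgc:153395 at 21.5. Just below were si:ch211-57n23.1 at 19.9, si:dkey-97l20.6 at 19.8 and zgc:158254 at 19.7. All 164 members had their 3 hair cell samples above their 3 nsSC samples, as 30.2% of all genes did. The choice by group means favours this in the members, though it does not require it of single samples. The lowest hair cell sample was 11.9 times the highest nsSC sample in the member where they came closest, and the median of this ratio was 88.9 over the 133 members with any value above 0 in nsSCs.

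The share of clone names among the restricted genes depends on what it is set against. Members made up 20.7% of all genes within both limits, while 9152 of all 31701 genes with values had a clone name. Of 665 clone-named genes with at least 10 RPKM in hair cells, 24.7% met the ratio limit too, against 11.2% of 5630 genes with other names. These shares describe the choice itself and were not tested. Compared with the 628 other genes inside the limits, the members had a lower median hair cell mean (32.4 against 42.2 RPKM) and a lower nsSC level, at a median of 0.508% of the hair cell level (quartiles 0.029% and 1.79%) against 1.04% (quartiles 0.189% and 2.44%). A value of 0 in all 3 nsSC samples was listed for 31 members (18.9%) and for 51 of the others (8.12%).

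The most abundant member was CU855484.1 (ENSDARG00000089149), which the list of names gives as gpx2, a glutathione peroxidase that detoxifies hydroperoxides. It had 3057, 2943 and 3126 RPKM in the 3 hair cell samples and 27.0, 22.8 and 25.2 RPKM in the 3 nsSC samples, which made it the 23rd most abundant gene of hair cells. The next, si:dkey-11c5.11 (ENSDARG00000096637), has no gene name in any source used here. Its values were 2231, 2272 and 2215 RPKM against 4.59, 4.85 and 4.69 RPKM, a ratio of the means of 475. Both genes were tight within each cell type, with standard deviations of 92.5 and 29.5 RPKM over the hair cell samples (n = 3).

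The next 3 members had nearly the same hair cell level and differed mainly in their trace in nsSCs. The ion channel gene si:rp71-68n21.12 (hcn5, of the hyperpolarization-activated, cyclic nucleotide-gated family) had 1212, 1178 and 1138 RPKM in hair cells against 5.85, 5.32 and 5.31 RPKM in nsSCs. The unnamed si:dkey-222f2.1 had 1144, 1125 and 1146 RPKM against 7.97, 7.18 and 8.12 RPKM. The lipid-binding START family gene si:dkeyp-110e4.11 (stard15) had 1106, 1086 and 1224 RPKM against 1.53, 1.83 and 1.41 RPKM. The ratio of the means was 214 for hcn5, 147 for si:dkey-222f2.1 and 716 for stard15, while the hair cell means of the last 2 were 1139 ± 11.7 and 1138 ± 74.4 RPKM (SD, n = 3) and could not be ordered.

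Below these, abundance fell steadily and most of the genes had no other name. The long non-coding RNA si:ch211-152c2.3 had 856, 882 and 908 RPKM in hair cells against 10.2, 11.2 and 7.11 RPKM in nsSCs, si:ch211-218o21.4 had 672, 671 and 712 against 4.68, 2.75 and 2.86 RPKM, and si:ch211-195b13.1 had 659, 655 and 719 against 17.2, 15.3 and 15.9 RPKM. Of these 3, the last kept the largest share in nsSCs, 2.38% of its hair cell level. CU469384.2, an open reading frame gene (C16H1orf232), had 527, 563 and 501 RPKM against 1.41, 2.20 and 1.26 RPKM. The unnamed si:ch211-172l8.4 had 441, 419 and 412 against 1.58, 0.91 and 1.17 RPKM, and si:ch211-284k5.2, named in the table for C25H17orf105, had 379, 384 and 364 against 2.95, 4.45 and 3.63 RPKM. Neighbours in this order, such as CU469384.2 and CABZ01067746.1 (540 ± 21.5 RPKM), overlapped in their samples.

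Among the rest of the 20 most abundant members, 3 genes shared a relatively high nsSC level. These were si:ch211-195b15.8 (364 ± 12.0 against 10.2 ± 0.68 RPKM, SD, n = 3), si:dkeyp-72h1.1 (350 ± 7.96 against 9.91 ± 0.64 RPKM) and zgc:158263 (264 ± 7.11 against 8.20 ± 0.39 RPKM). Their nsSC means came to 2.80%, 2.84% and 3.11% of the hair cell means. By comparison zgc:56628 had 342 ± 6.44 against 2.19 ± 0.53 RPKM. In the plot of the 20 members the level in nsSCs varied over a far wider range on the log scale than the level in hair cells. The 20 were chosen for high hair cell means, which narrows the range in hair cells. Whether the levels in the cell types go together was not tested, and CU855484.1 was the highest of the 20 in both.

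**Figure D2:**
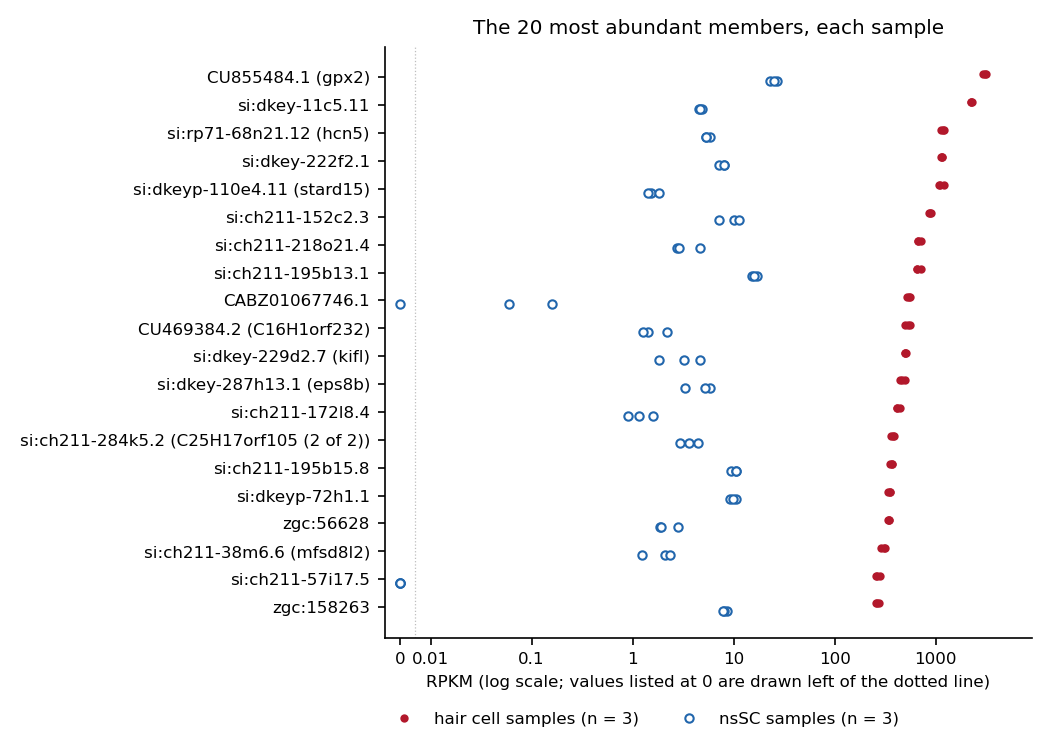
RPKM (x axis, log scale) of the 20 members with the highest hair cell means, with a red point for each of 3 hair cell samples and an open blue point for each of 3 nsSC samples. Hair cell points of a gene nearly coincide, from 3042 RPKM on average for CU855484.1 to 264 RPKM for zgc:158263, while nsSC points range from 0 in si:ch211-57i17.5 to 27.0 RPKM in CU855484.1.

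The members with the highest ratio to the nsSC mean plus 0.1 were not the most abundant members. CABZ01067746.1, with no gene name in any source, led with 543, 560 and 518 RPKM in hair cells against 0.06, 0.16 and 0 RPKM in nsSCs. The unnamed si:ch211-57i17.5 came next with 284, 263 and 257 RPKM in hair cells and was listed at 0 in every nsSC sample. Then came zgc:171927 (180, 168 and 176 RPKM against 0, 0.04 and 0) and si:ch73-15n15.3 (172, 171 and 161 RPKM against 0.05, 0 and 0). None of these 4 genes has a gene name, and all had above 160 RPKM in every hair cell sample and at most 0.16 RPKM in any nsSC sample.

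The fifth was si:cabz01059983.1, which the list of names gives as strc. Its product stereocilin forms the lateral links between stereocilia in mice. It had 195, 195 and 181 RPKM in hair cells against 0.02, 0.07 and 0.02 RPKM in nsSCs. The sixth was si:ch73-29c22.2 (B3GALT9, of the galactosyltransferase family) with 136, 140 and 129 RPKM against 0.03, 0.03 and 0. CR536604.1 (75.5, 76.0 and 71.1 RPKM) and CABZ01080599.1 (70.0, 70.3 and 67.2 RPKM), both listed at 0 in nsSCs, si:ch211-193l2.5 (81.4, 79.8 and 79.8 RPKM against 0.05, 0 and 0) and stard15 completed the 10. Since 0.1 RPKM is added to the nsSC mean, the ratios of genes near 0 in nsSCs depend on that amount.

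Of the 31 members listed at 0 in all nsSC samples, 18 had only clone names, 11 had a gene name and 2 the name of an open reading frame. After si:ch211-57i17.5, CR536604.1 and CABZ01080599.1 the most abundant were BX120006.2 (41.4 RPKM in hair cells), si:dkeyp-46h3.1 (37.9 RPKM), si:ch211-93n23.7 (32.3 RPKM), zgc:110434 (31.0 RPKM) and CABZ01077956.1 (27.4 RPKM). BX120006.1 had 26.9 RPKM, CABZ01079495.1 25.5 RPKM, si:dkeyp-50b9.1 22.9 RPKM, si:rp71-56i13.6 22.4 RPKM, si:ch211-198b3.4 20.5 RPKM, si:ch211-197l9.5 19.9 RPKM and si:dkey-16m19.1 19.6 RPKM. The other 16 lay between 10.2 and 17.9 RPKM. RefSeq names zgc:110434 as a histone gene, a family of near-identical copies among which reads can be split, and the table gives it another clone name. The number of nsSC samples at 0 was 2 for 18 members, 1 for 10 and 0 for 105, and 43, 43 and 53 members were at 0 in the 3 nsSC samples. A listed 0 stands for a recorded value that rounds to 0 at 2 decimals. The depth of the samples is not carried by RPKM values, so it gives no exact upper limit for the true level.

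The level left in nsSCs was capped for the members by their choice, and is given beside that of established hair cell markers as a description. The members summed to 0.902%, 0.893% and 0.875% of their mean hair cell sum in the 3 nsSC samples, and the 20 hair cell marker entries to 0.645%, 0.673% and 0.632% of theirs. Few genes carried the marker sums: atp2b1a alone gave 104, 121 and 99.9 RPKM of the 271 to 288 RPKM in nsSCs. Per gene, the markers had a median nsSC level of 0.479% of the hair cell level (quartiles 0.216% and 0.824%), from 0 in the main cdh23 entry to 10.8% in the calcium pump atp2b1a. Of the members, 40 lay between these quartiles, 56 below and 68 above, up to 4.78%. Where the traces come from was not tested.

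A role known in other vertebrates or in zebrafish was given by hand to 46 members from their gene names. Some members with a telling name, such as the histone gene zgc:110434, were given none. The shares of these roles among other genes were not counted. This grouping was made after the values were seen and describes the set without testing it. Of the 46, 16 belong to the cilium and microtubules, 8 are enzymes and transporters, 7 signalling and secreted proteins, 5 channels and receptors, 5 the hair bundle and actin, 3 vesicle traffic and 2 transcription. The median hair cell mean lay between 14.8 RPKM for transcription and 89.2 RPKM for enzymes and transporters.

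The 5 genes of the hair bundle and actin spanned 11.1 to 467 RPKM in hair cells. The highest was si:dkey-287h13.1, given as EPS8L2 in the table and as eps8b in the list of names, both of the EPS8 family of actin-binding proteins found in stereocilia of mice. It had 462, 493 and 446 RPKM in hair cells against 3.28, 5.86 and 5.21 RPKM in nsSCs. Stereocilin (si:cabz01059983.1) followed at 190 ± 8.08 RPKM (SD, n = 3). The actin-binding supervillin gene svilc (si:dkeyp-57f11.2) had 22.7, 20.8 and 18.4 RPKM against 0.07, 0.07 and 0.04 RPKM, and CABZ01080074.2, named for the actin-binding SHROOM2, had 12.0, 12.6 and 12.5 RPKM against 0.03, 0.06 and 0.08 RPKM. The entry si:dkey-1m11.5 is named CDH23 (1 of 2) in the table, after the tip link cadherin, and had 11.8, 9.87 and 11.6 RPKM against 0.13, 0.09 and 0.12 RPKM. In all 5 the hair cell samples lay far above the nsSC samples, which the choice by group means favours.

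The 16 genes of the cilium and microtubules formed the largest of these hand-made groups, with hair cell means from 10.8 to 502 RPKM and 4 members at 0 in all nsSC samples. At the top were motors and tubulin. The kinesin-like gene kifl (si:dkey-229d2.7) had 502, 511 and 494 RPKM against 1.82, 4.62 and 3.22 RPKM, the kinesin kif28 (si:rp71-84d9.1, ENSDARG00000091585) 217, 227 and 214 RPKM against 6.35, 5.54 and 5.83 RPKM, and the beta tubulin zgc:55461 179 ± 9.67 RPKM against 1.43 ± 0.17 RPKM (SD, n = 3). Between them stood kncn (si:dkey-225f23.3), whose product kinocilin lies in the kinocilium of mouse hair cells. It had 227, 227 and 244 RPKM in hair cells against 1.36, 2.50 and 0.05 RPKM in nsSCs. Its nsSC samples differed widely among themselves, while all were far below the hair cell samples.

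The other ciliary members lay between 10.8 and 38.6 RPKM. They included genes for proteins inside or along the axoneme: hoatz (si:dkey-27p23.3, 38.6 ± 0.68 RPKM), CFAP299 (si:ch211-57h10.1, 36.5 ± 1.26 RPKM), nme8_1 (CU499346.1, 31.9 ± 3.15 RPKM), cimip5 (si:dkey-18j18.3, 31.1 ± 4.30 RPKM), spag8 (CABZ01016432.1, 22.9 RPKM), jhy (si:rp71-56i13.6, 22.4 ± 0.51 RPKM), cimip2c (si:ch211-198b3.4, 20.5 ± 1.71 RPKM), stpg2 (CABZ01112921.1, 12.4 ± 2.02 RPKM) and cabcoco1 (zgc:194508, 12.3 ± 2.54 RPKM). The alpha tubulin tuba8l5 had 32.8, 32.9 and 31.8 RPKM. The small GTPase gene ARL3 (zgc:110197), which releases cargo inside cilia, had 17.4, 15.7 and 19.2 RPKM, and the tubulin carboxypeptidase family gene MATCAP2 (si:dkey-222b8.4) had 11.2, 10.2 and 10.9 RPKM. At 0 in all nsSC samples were jhy, cimip2c, cabcoco1 and MATCAP2.

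The 5 channels and receptors were led by hcn5 at 1176 ± 37.0 RPKM (SD, n = 3). The transmembrane channel-like gene tmc5 (si:dkey-202l16.5), a relative of the tmc genes of mechanotransduction, had 169, 177 and 171 RPKM in hair cells against 1.09, 1.69 and 1.32 RPKM in nsSCs. The nicotinic acetylcholine receptor subunit gene chrna8 (si:ch73-380n15.2) had 32.6 ± 2.24 RPKM (SD, n = 3) in hair cells and 0.14 to 0.20 RPKM in nsSCs. A pair of potassium channel genes lay close together: CABZ01057411.1, named KCNH2 (2 of 2) in the table, with 26.8, 28.9 and 26.7 RPKM against 0.20, 0.25 and 0.30 RPKM, and kcnq1.2 (CABZ01079495.1) with 24.1, 26.9 and 25.6 RPKM and 0 in every nsSC sample. The hair cell samples of the 2 potassium channel genes overlapped.

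Vesicle traffic and transcription had few members. The clathrin assembly gene snap91b (si:ch211-214j24.9) had 53.6, 59.8 and 61.4 RPKM against 0.12, 0.28 and 0.18 RPKM, the DENN domain gene DENND11 (si:ch211-238n5.4) 40.8, 40.3 and 40.1 RPKM against 1.58, 1.42 and 1.42 RPKM, and the epsin gene epn1b (zgc:194578) 18.9, 18.8 and 17.4 RPKM against 0.46, 0.26 and 0.53 RPKM. The transcription factor pou4f4 (zgc:158291), of the same POU class as pou4f3, had 18.9, 20.8 and 18.6 RPKM against 0.11, 0.07 and 0.03 RPKM. The SKI family corepressor skor2 (zgc:153395) was the least abundant member of all, with 10.2, 10.8 and 9.66 RPKM against 0.37, 0.31 and 0.44 RPKM.

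Of the 8 enzymes and transporters, gpx2 and stard15 stood far above the others. The major facilitator family gene mfsd8l2 (si:ch211-38m6.6) had 312, 307 and 289 RPKM against 1.24, 2.11 and 2.36 RPKM, and B3GALT9 135 ± 5.57 RPKM (SD, n = 3). The cytidine deaminase gene CDA (zgc:103586) had 43.2, 41.4 and 45.2 RPKM against 0.31, 0.33 and 0.10 RPKM. Fatty acid metabolism was represented by the acyl-CoA thioesterases acot17 (zgc:77651, 22.7, 22.1 and 19.9 RPKM) and acot16 (si:dkeyp-89c11.1, 12.7, 13.8 and 13.3 RPKM) and by CABZ01102047.1, named for the acyl-CoA synthetase ACSL6 (10.4, 11.4 and 9.55 RPKM). These 3 had at most 0.30 RPKM in any nsSC sample.

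The 7 signalling and secreted members ran from 23.3 to 257 RPKM. The shisa-like gene SHISAL1 (si:dkey-14k9.2) had 263, 257 and 252 RPKM against 1.95, 1.09 and 0.94 RPKM, the SRC kinase inhibitor gene srcin1b (zgc:114120) 87.0, 95.9 and 84.4 RPKM against 1.67, 1.64 and 1.95 RPKM, and the Rap GTPase activator gene rap1gapl (si:ch1073-90m23.1) 66.0, 71.3 and 65.4 RPKM against 0.69, 1.48 and 1.47 RPKM. Lower were minar2 (CR790388.2, 39.9 ± 1.87 RPKM), a gene linked to hearing in mice, tafa3b (si:ch211-254n4.3, 38.0 ± 1.31 RPKM), which encodes a secreted chemokine-like protein, and the shootin gene shtn3 (si:dkey-280e21.3, 23.3 ± 1.06 RPKM). None of the 7 was listed at 0 in all nsSC samples.

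**Figure D3:**
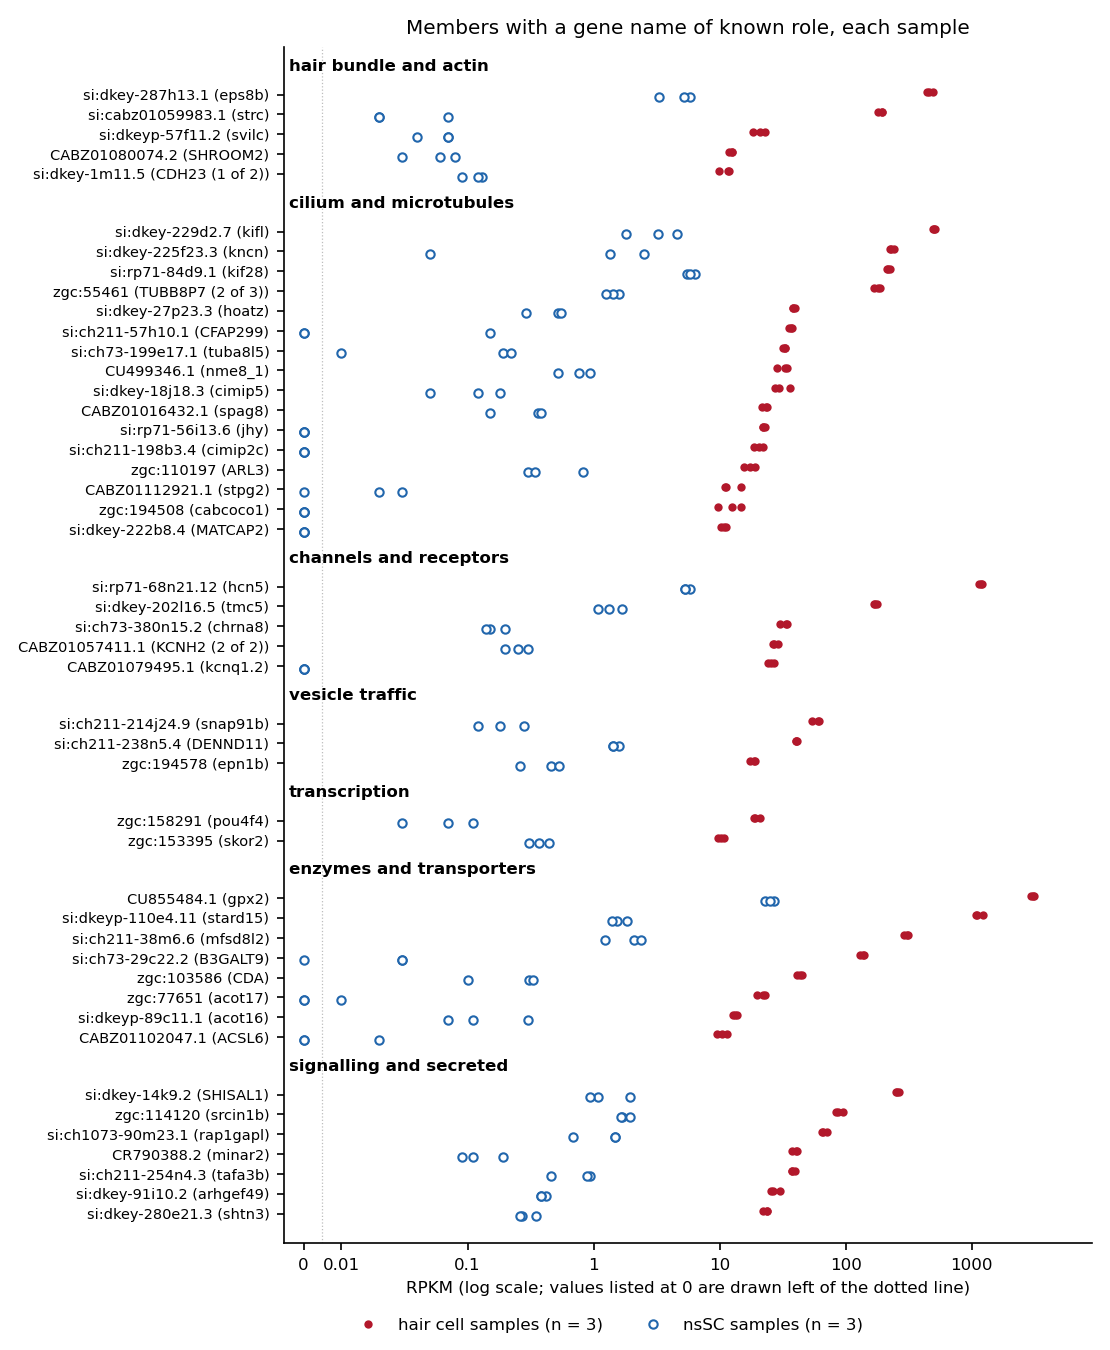
RPKM (x axis, log scale) of the 46 members that were given a role from their gene name, grouped by role, with a red point for each of 3 hair cell samples and an open blue point for each of 3 nsSC samples; values listed at 0 are drawn left of the dotted line. The ciliary group has the most members (16) and gpx2 and hcn5 stand at the top of their groups with means of 3042 and 1176 RPKM.

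Members with a gene name to which no role was given here were also found at all levels. A pair was named for spermatogenesis or testis in RefSeq: spata45 (si:ch211-147d7.5) had 115, 120 and 109 RPKM in hair cells and 3.78, 2.60 and 3.73 RPKM in nsSCs, and tex55 (si:dkey-70b23.2) had 130, 118 and 128 RPKM against 1.44, 1.32 and 2.19 RPKM. Another gene with a testis name, tex47 (CABZ01079984.1), was lower at 28.4, 27.3 and 28.9 RPKM. SAMD4B (si:ch1073-111c8.3), named for an RNA-binding protein, had 50.6, 53.1 and 55.6 RPKM in hair cells and kept 1.56 to 2.30 RPKM in nsSCs. The ankyrin repeat genes ANKRD66 (26.0 ± 3.17 RPKM) and ankrd53 (18.6 ± 1.74 RPKM), the armadillo-like armh1 (17.7 ± 2.59 RPKM), dleu7 (19.3 ± 0.68 RPKM) and CNBD1 (14.7 ± 0.80 RPKM, SD, n = 3) were near the lower quartile of all members. LEKR1 (CR626874.1, 13.7, 13.4 and 13.6 RPKM) and CCDC74B (si:ch211-222n4.2, 15.7, 11.1 and 12.8 RPKM) were listed at 0 in every nsSC sample.

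Members that no source names, or that are named only for an open reading frame, included genes as abundant as the named ones. From 100 RPKM upwards there were 45 members. Among them were si:ch211-193l2.10 (207, 192 and 205 RPKM against 1.19, 0.73 and 0.68 RPKM), zgc:154006 (186, 182 and 171 RPKM against 0.68, 0.85 and 0.59 RPKM), si:dkey-266m15.7 (179, 181 and 169 RPKM against 2.98, 5.16 and 3.84 RPKM) and si:dkey-201i24.3 (165, 159 and 148 RPKM against 0.39, 0.63 and 0.50 RPKM). The 4 long non-coding RNAs of RefSeq were si:ch211-152c2.3, described above, CR677617.1 (128, 122 and 125 RPKM against 3.21, 3.30 and 3.08 RPKM), si:dkey-85k7.7 (117, 117 and 138 RPKM against a mean of 3.44 RPKM) and BX465834.1 (33.8, 34.1 and 31.2 RPKM against 0.40, 1.16 and 0.69 RPKM). None of the 4 was at 0 in any nsSC sample.

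Replicate hair cell samples agreed closely for most members. The coefficient of variation over the 3 hair cell samples had a median of 4.82% over the members, 4.67% over the 628 other genes inside the limits and 5.19% over all 6295 genes with at least 10 RPKM in hair cells. Its upper quartile was 9.55%, 6.87% and 7.94% in the same order, so the more variable members spread wider than either other set. The coefficient was over 20% in 6 of the 164 members, in 5 of the 628 other genes and in 87 of all 6295 genes. The steadiest members were ELAPOR2 (si:dkey-153k10.9), named for a regulator of endosomes and lysosomes, with 20.2, 20.4 and 20.4 RPKM (0.725%), DENND11 (0.870%) and the unnamed si:ch211-193l2.3 with 17.1, 17.4 and 17.4 RPKM (1.01%). The third sample was the lowest of the 3 for 79 members, the first for 40 and the second for 45, but the median level of the samples relative to the mean of a gene was 1.01, 1.01 and 0.989.

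The variable members were few, had hair cell means of at most 41.4 RPKM, and mostly had no other name. BX927330.1 had 14.9, 11.6 and 27.1 RPKM (45.8%), BX120006.2 54.8, 25.7 and 43.6 RPKM (35.4%) and si:ch211-1n9.6 32.2, 21.3 and 17.3 RPKM (32.8%). BX548025.1 had 10.4, 7.75 and 14.5 RPKM (31.4%) and CR384062.1 had 11.7, 17.4 and 17.8 RPKM (21.7%). Of these 5, the highest sample was the third in 3, the first in 2. The sixth above 20% was cabcoco1 with 14.8, 9.70 and 12.5 RPKM (20.6%). BX548025.1 fell below 10 RPKM in its second sample, and all samples of these genes remained above those of nsSCs.

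The names tie some members to each other. None of them had the same 6 values as another entry, but 4 clones each held 2 or more members, 9 in all. The clone si:ch211-193l2 held 3 of them, si:ch211-193l2.10, si:ch211-193l2.5 (80.3 RPKM) and si:ch211-193l2.3 (17.3 RPKM). The symbol si:rp71-84d9.1 stands for 2 identifiers, kif28 and ENSDARG00000076687, which had 112, 109 and 102 RPKM against 1.84, 1.26 and 1.57 RPKM. The clone BX120006 held BX120006.2 and BX120006.1 (27.1, 22.0 and 31.6 RPKM), both at 0 in nsSCs and both lowest in the second hair cell sample, and si:dkey-19b23 held si:dkey-19b23.13 (157, 163 and 164 RPKM) and si:dkey-19b23.7 (16.0, 19.6 and 17.3 RPKM). Names also linked BX548075.2 (89.5, 97.5 and 75.3 RPKM) with si:dkeyp-46h3.1 (34.8, 33.3 and 45.6 RPKM), and BX927308.2 with si:dkey-16m19.1. Members linked in this way are not independent observations of restriction to hair cells.

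Other genes that share a clone with a member could be compared between the cell types. They are clone-named too, so any that met both limits are members and are absent from this comparison. For this, 22374 genes whose mean reached 0.1 RPKM in hair cells, in nsSCs or in both were fitted by limma, as log2(RPKM + 0.1). A call required an adjusted p (Benjamini-Hochberg) under 0.05 together with a 2-fold difference on the log scale, where differences between low values come out too small. Calls in favour of hair cells made up 31.0% of all tested genes and those in favour of nsSCs 35.4%. Of 83 other entries on the clones of members 63 were tested, and 22 of them (34.9%) were called higher in hair cells, 30 (47.6%) higher in nsSCs and 11 neither. The median log2 fold change of the tested entries was -0.968. The shared clone thus went with calls in both directions, and both shares were above those of all genes. The rule lowered the share for hair cells by removing members, which all genes include, so the shares are not like for like. On BX120006 the third entry, BX120006.3, was listed at 0 in hair cells and had 1.99 RPKM in nsSCs, the reverse of the 2 members beside it. On the clone of acot16, in contrast, the thioesterase acot15 (si:dkeyp-89c11.3) had 6.09, 6.27 and 6.13 RPKM in hair cells against 0, 0.01 and 0 RPKM, while acot14 (si:dkeyp-89c11.2) was listed at 0 in hair cells and had at most 0.16 RPKM in nsSCs.

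Some genes carry the same gene name as a member or, as samd4a does for SAMD4B, the name of another gene of its family. Their values are set beside those of the member here. For 18 members, 21 such genes were found in the table. The list was drawn up after the values were seen. By the same fit 9 were called higher in hair cells and 5 higher in nsSCs, 3 were called in neither direction and 4 were not tested. The 3 had limma adjusted p values under 0.05 and missed only the 2-fold limit. Reads of near-identical copies can be assigned to either copy, and how such reads were treated is not stated in the sources used here, so these levels are uncertain where copies are alike.

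In 5 of the listed families the member and its relative lay on opposite sides. For kcnq1.2 (25.5 ± 1.37 RPKM in hair cells and 0 in nsSCs) the relative kcnq1 was listed at 0 in every hair cell sample and had 6.67, 8.08 and 7.94 RPKM in nsSCs (log2 fold change -6.25 ± 0.14 SE, limma adjusted p = 3.47e-08). For SHISAL1 the relative si:ch73-66d24.2 was at 0 in hair cells and had 1.15, 0.93 and 1.57 RPKM in nsSCs (-3.69 ± 0.21, adjusted p = 2.79e-06). For snap91b the relative snap91 was at 0 in hair cells and had 0.26, 0.39 and 0.26 RPKM in nsSCs (-1.996 ± 0.21, adjusted p = 7.57e-05). For stereocilin, si:ch211-150j10.4 (strc1) had 0.33, 0.40 and 0.28 RPKM in hair cells against 0.99, 0.96 and 0.88 RPKM in nsSCs (-1.26 ± 0.16, adjusted p = 2.16e-04). For SAMD4B (si:ch1073-111c8.3) the relative samd4a had hair cell values of 0.05, 0.08 and 0.03 RPKM against 0.35, 0.29 and 0.27 RPKM (-1.40 ± 0.20, adjusted p = 4.47e-04). The last 3 relatives were below 1 RPKM throughout, and with a pseudocount of 1 RPKM none of these 3 passed the 2-fold limit.

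In other families the relatives shared the direction of the member. The ciliary gene cimip2b (fam166b), named alongside cimip2c, had 81.8, 89.2 and 81.8 RPKM in hair cells against 0.07, 0.25 and 0.17 RPKM in nsSCs (8.38 ± 0.25 SE, limma adjusted p = 1.17e-07), and was more abundant than the member. The main cdh23 entry had 26.3, 29.4 and 27.6 RPKM and 0 in nsSCs (8.12 ± 0.12, adjusted p = 7.27e-09), and its level was above that of si:dkey-1m11.5. Of the EPS8 family, EPS8L2 had 42.9, 44.4 and 39.3 against 1.84, 2.02 and 2.46 RPKM (4.27 ± 0.12) and eps8 14.7, 14.4 and 13.4 against 0.90, 1.13 and 1.00 RPKM (3.68 ± 0.12), and both were less abundant per length in hair cells than the member. The ANKFN1 entry, which missed the limit of 10 RPKM, had a log2 fold change of 4.78 ± 0.19, and the member of that family, ankfn1a, had 43.5, 46.2 and 44.4 RPKM in hair cells. The GTPase arl3 (2.36 ± 0.08), SRCIN1 (2.61 ± 0.14), svila (1.52 ± 0.09) and a second cdh23 entry (3.17 ± 0.19) were also called higher in hair cells.

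A few relatives were present in both cell types at similar levels. The epsin gene epn1 had 27.9, 29.2 and 28.7 RPKM in hair cells against 21.3, 19.9 and 19.1 RPKM in nsSCs (0.51 ± 0.06 SE), above its hair cell-restricted partner epn1b in both. SHROOM2 (2 of 2) had 1.56, 1.49 and 1.47 against 1.09, 1.12 and 1.28 RPKM (0.35 ± 0.13), and the TAFA3 entry si:dkey-238f9.1 had 8.82, 8.32 and 6.90 against 10.8, 10.8 and 11.8 RPKM (-0.48 ± 0.11). These 3 did not reach a 2-fold difference. The supervillin svilb and the ELAPOR2 relative si:ch211-233h19.2 were at 0 in every sample, kcnh2a was at 0 in hair cells and at most 0.04 RPKM in nsSCs, and the relative of the SUSD3 member zgc:162331 was at most 0.11 RPKM in hair cells.

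**Figure D4:**
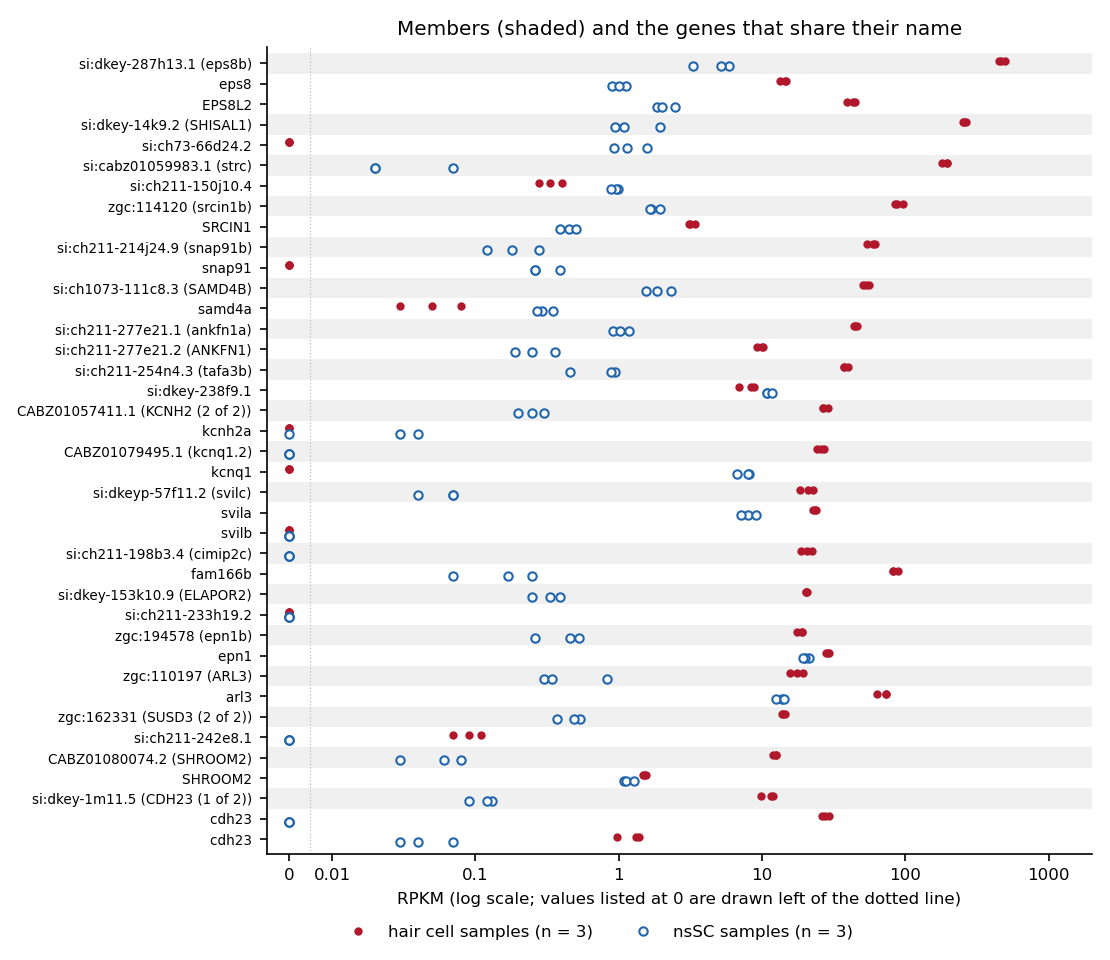
RPKM (x axis, log scale) of 18 members (shaded) and of the 21 listed genes that share a gene name or a family name with them (unshaded, below each member), with a red point for each of 3 hair cell samples and an open blue point for each of 3 nsSC samples; values listed at 0 are drawn left of the dotted line. Blue lies right of red for kcnq1, si:ch73-66d24.2, snap91, si:ch211-150j10.4 and samd4a, and red and blue lie close together for epn1 and SHROOM2.

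The nearest gene on each side of a member in the genome was found without use of the values. Which genes neighbour each other was taken from the order of genes in RefSeq's annotation of GRCz12tu, a later assembly than the GRCz10 to which the reads were mapped, so that no positions are given. Of 210 places beside 105 matched members, 128 were filled by a gene that could be found in the table, and 2 of these by another member: si:ch211-258f14.2 and zgc:162331 lie next to each other, with 97.7, 94.1 and 94.1 RPKM and 14.0, 13.7 and 14.5 RPKM in hair cells. Of the 126 neighbours that were no members 113 were tested. Of the tested neighbours, 49 (43.4%, against 31.0% of all tested genes) were called higher in hair cells and 27 (23.9%, against 35.4%) higher in nsSCs. The other 37 were not called. Neighbours had to be matched to RefSeq, as 21642 of the 31701 genes with values were, while all tested genes include unmatched ones. The shares among matched genes alone are not given here, so the sets compared are unlike. A difference of at least 8-fold in favour of hair cells was seen in 15 (13.3%, against 10.6% of all tested genes). The nearest protein-coding genes were an alternative chosen after the data were seen. Of 144 such genes tested, 58 (40.3%) were called higher in hair cells and 42 (29.2%) higher in nsSCs. The median log2 fold change of the neighbours was 0.85, and that of all tested genes was -0.000396.

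The neighbours highest in hair cells included known hair cell and ciliary genes. The adenylate kinase ak7b, of axonemes, next to the unnamed si:dkey-288a3.2, had 45.5, 40.1 and 42.4 RPKM in hair cells against 0.04, 0.06 and 0.11 RPKM in nsSCs (log2 fold change 7.99 ± 0.17 SE, limma adjusted p = 2.82e-08). The otoferlin gene otofa, a calcium sensor of hair cell exocytosis and the neighbour of cimip2c, had 297, 293 and 298 against 1.40, 2.11 and 1.37 RPKM (7.45 ± 0.16, adjusted p = 2.50e-08). The ciliary kinesin kif17, next to the open reading frame gene zgc:158258, had 17.2, 19.8 and 16.8 against 0.01, 0 and 0 RPKM (7.44 ± 0.14, adjusted p = 1.46e-08). Of these 3, otofa was more abundant than its member and the other 2 were less abundant than theirs.

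Others were lower or less restricted. The xylosyltransferase xylt1, beside tmc5, had 4.36, 3.86 and 4.26 against 0.02, 0.10 and 0 RPKM (4.99 ± 0.27 SE), the ARF GTPase activator asap1b, beside si:dkey-37o8.1, 103, 99.3 and 113 against 4.48, 3.46 and 4.34 RPKM (4.66 ± 0.11), GRB7, beside srcin1b, 3.00, 3.18 and 3.06 against 0.07, 0.12 and 0.10 RPKM (4.02 ± 0.15), and nrcama, beside si:dkeyp-81f3.4, 2.49, 1.54 and 1.44 against 0.04, 0.01 and 0.02 RPKM (3.93 ± 0.24). The member CR848021.1 (19.2, 17.7 and 21.6 RPKM) lay between capgb, an actin capping gene (134, 144 and 131 against 8.57, 10.6 and 8.90 RPKM, 3.86 ± 0.09), and the transporter gene mfsd8 (3.38 ± 0.14). The small-conductance potassium channel gene kcnn1a, beside zgc:154006, had 10.1, 12.4 and 7.50 against 0.67, 0.83 and 0.85 RPKM (3.49 ± 0.20), and si:ch211-232m10.6, beside epn1b, had 3.47 ± 0.23. All of these had limma adjusted p values of 6.43e-06 or less. Among the nearest protein-coding genes were also ttc7a beside si:ch211-93n23.7 (235, 241 and 230 against 0.74, 0.67 and 0.46 RPKM), and chrnb3a and dnah6 on the 2 sides of chrna8 (12.3, 12.7 and 12.4, and 5.73, 5.81 and 5.04 RPKM in hair cells, at most 0.07 RPKM in nsSCs), the first a nicotinic receptor subunit like its neighbour.

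Other members had neighbours of the opposite kind. The heparan sulfate sulfotransferase hs3st1l2, beside si:dkey-13n15.2, was at 0 in hair cells and had 9.22, 9.70 and 10.7 RPKM in nsSCs (-6.64 ± 0.13 SE, limma adjusted p = 2.05e-08). The annexin gene anxa1a, beside the kinesin-like kifl, had 12.2, 11.5 and 10.3 against 537, 577 and 548 RPKM (-5.60 ± 0.07), and arrdc2, beside si:dkey-13m1.5, 1.79, 1.11 and 1.08 against 69.3, 69.8 and 72.6 RPKM (-5.66 ± 0.18). The antigen presentation gene cd74a, beside si:dkey-201i24.3, had 8.72, 7.68 and 9.33 against 376, 331 and 367 RPKM (-5.37 ± 0.09). Lower down, slc13a4, zgc:110425 and slc26a2 were at or near 0 in hair cells and had 1.35 to 2.57 RPKM in nsSCs, and rras (-3.42 ± 0.09), mthfd1b (-3.06 ± 0.21), beside gpx2, and FO704741.1 (-2.90 ± 0.37) completed the 10 largest. Neighbours thus lay on both sides of the comparison. Reads were not stated to be counted by strand, and reads of a member that overlaps its neighbour cannot be told apart from those of the neighbour; overlaps were not analysed here.

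**Figure D5:**
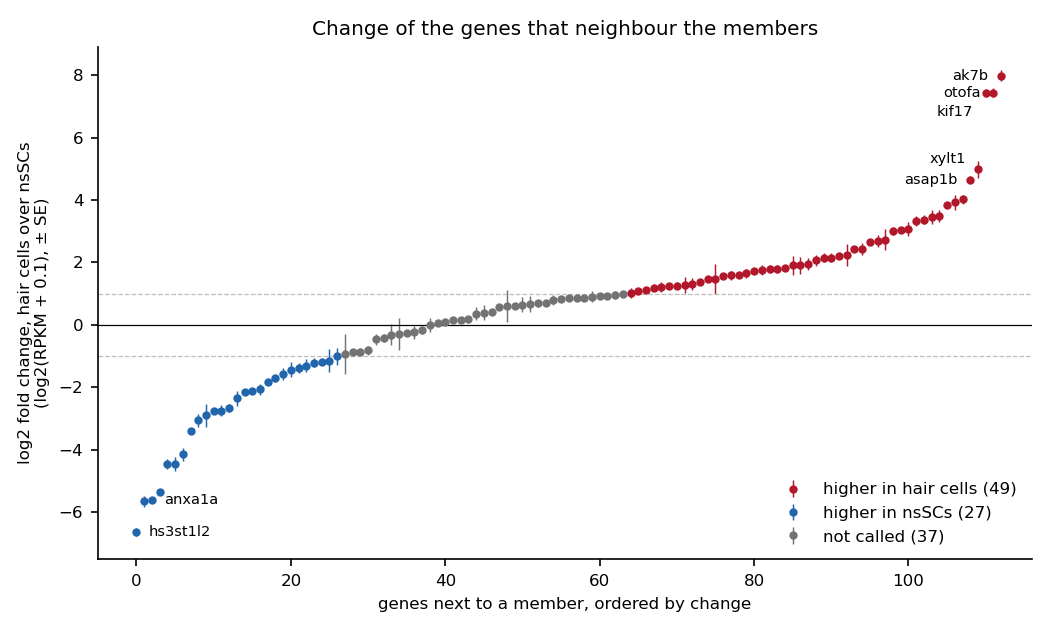
Log2 fold change of hair cells over nsSCs on log2(RPKM + 0.1) (y axis, ± SE from limma) of the 113 tested genes next to a member, ordered by size (x axis); red genes were called higher in hair cells, blue genes higher in nsSCs and grey genes neither, and dashed lines mark 2-fold. The values run from -6.64 for hs3st1l2 to 7.99 for ak7b, with 49 red, 27 blue and 37 grey genes.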

How the data were processed

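Hair cells and nsSCs were compared as 3 samples of 1000 cells each. The authors amplified the RNA with SMART-Seq v4, made Nextera libraries, sequenced paired ends, used CLC Genomics Workbench for mapping to GRCz10, and deposited RPKM values rounded to 2 decimals. Their methods also name HTSeq count. Versions are not given in the sources used here. RPKM carry no read counts. The study gives only an approximate number of reads sequenced per sample, so the counts and counting error behind single values are unknown, and no further scaling was used. The totals of RPKM were 704199 to 713194 in hair cells and 976739 to 1012810 in nsSCs. Of 35919 entries, 4218 had no values and were left out.

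The members and all lists were chosen with earlier results of these data known. Named are the 20 most abundant members, the 10 with the highest ratio, up to 15 listed at 0 in nsSCs, the 5 most and 3 least variable, those next to the limits, those the study names, those with a RefSeq name, and the 10 neighbours or relatives with the largest called difference each way. The named members of each role and the members that share a clone were added after their values were seen, and a few with a RefSeq name are counted without values. Roles, relatives by name and clone mates were listed after values were seen.

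Genes of at least 0.1 RPKM in either cell type were fitted on log2(RPKM + 0.1) by limma 3.58.1, run in R 4.3.3 with statmod 1.5.0, moderation being trended and robust. On simulated data it called 40 of 100 genes changed 2-fold and 92 of 100 changed 4-fold in the right direction. Of 20196 unchanged genes it called 3. The simulated 2-fold changes lay at the fold limit of a call itself, so the 40 does not measure how often such changes are detected. Simulated noise was that among the nsSC samples, and genes of the lowest nsSC means were not among those changed. A gene that was not called is not shown to be unchanged. The study describes the 3 samples of a cell type as biological replicates of pooled fish, so p-values measure the spread between pools. Other steps used Python 3.11.15, numpy 2.4.6, pandas 2.3.3 and matplotlib 3.10.9. Alternatives were other limits, pseudocounts, filters and scalings, a replicate block, and leaving out each sample. No protein or promoter sequences were used here.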

Additional observations from a re-analysis of the deposited data

How the results depend on the processing

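The number of members followed the limits. It was 164 as stated, 94 with 1 RPKM added to the nsSC mean in place of 0.1, and 113 to 213 under the other limits, name patterns and scalings. It was 163 to 168 when each sample was left out in turn, of which 161 to 163 were members of the stated set. A requirement that every hair cell sample meet the limits against every nsSC sample left 145. The members listed at 0 in all nsSC samples were 31 as stated, 56 with a minimum of 5 RPKM and 13 with a minimum of 20 RPKM or with 1 RPKM added.

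Scaling moved the centre of all differences. Median-ratio scaling over 9968 genes lowered the median log2 fold change of all tested genes to -0.48, and scaling to the same total RPKM raised it to 0.49. The neighbours then split into 37 calls for hair cells and 30 for nsSCs under the first, and 65 and 23 under the second. Among all genes the counts were 5471 and 9093, and 8756 and 7024. With a fold minimum of 4 the neighbours were 25 and 17. At the stated 2-fold minimum, the nearest protein-coding genes gave 58 higher in hair cells and 42 higher in nsSCs. Over all genes there were 4008 calls for hair cells with a fold minimum of 4, and 4516 and 5046 higher in nsSCs with a pseudocount of 1 RPKM and a filter of 1 RPKM. Leaving out each sample in turn gave 47 to 50 and 25 to 26 neighbours, and 6808 to 7029 and 7800 to 7921 of all genes. SHROOM2 (2 of 2) turned to -0.10 under median-ratio scaling and si:dkey-238f9.1 to 0.0071 under the same total, neither being called. With a pseudocount of 1 RPKM samd4a (-0.31), snap91 (-0.38) and si:ch211-150j10.4 (-0.54) no longer reached 2-fold, nor did the last under the same total (-0.86). Median-ratio scaling shifted the log2 fold changes by -0.443 on average, and scaling to the same total by 0.453. Adding 1 RPKM makes the log2 difference between values below 1 RPKM smaller.

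Deviations of same-numbered samples correlated at -0.047, 0.023 and 0.001 over the tested genes. Such correlations cannot show whether same-numbered samples shared fish, which the study does not state, and the main fit was unpaired. With the replicate block the neighbours split into 49 calls for hair cells and 27 for nsSCs, and all genes into 6953 and 7934. Comparisons by protein, by promoter motif and by strand of the neighbour were not run.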
